A study of Mus musculus with 32 samples.

Results

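Histone genes were followed in sorted mouse CD4+ T cells across 32 arrays. The members were the genes whose platform symbol begins as those of the replication-dependent core histones and the linker histones do (H1f, H1-, H2ac, H2bc, H3c, H4c or the older Hist names). They came to 38 genes over both platforms, with 29 of 22180 genes on the 48 h arrays, 19 of 17097 on the 72 h arrays and 10 on both. The 48 h members were 8 H1, 6 H2A, 8 H2B and 7 H4 genes, and the 72 h members were 6 H1, 4 H2B, 6 H3 and 3 H4 genes.

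Each nucleosome wraps DNA around the core histones H2A, H2B, H3 and H4, and linker histones of the H1 family bind where the DNA enters and leaves it. Most of these genes lie in clusters and are transcribed mainly in S phase, when newly made DNA has to be packed. Their mRNAs end in a stem-loop bound by the protein SLBP rather than in a poly(A) tail, whereas replication-independent variant histones are made from polyadenylated mRNAs throughout the cell cycle. A resting CD4+ T cell leaves quiescence and begins to divide after it meets its antigen.

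The cells were from Balb/c mice with the DO11.10 T cell receptor transgene, came from axial and cervical lymph nodes, and were cultured on thioglycollate-elicited peritoneal macrophages, which present the antigen. At 48 h, T cells had cognate OVA peptide in RPMI-SILAC medium holding 1% of the normal amount of 1 amino acid (arginine, leucine or lysine), OVA on macrophages pretreated with IL-4 and IL-10 at 10 ng/mL each, or OVA on untreated macrophages. The labels name no lowered amino acid for that last group, which is called full medium here. Controls without OVA had the 3 low media. At 72 h, again with no lowered amino acid named, the cells had OVA on pretreated macrophages, OVA on untreated macrophages, or no OVA. Every group had 3 arrays except no OVA in low arginine, with 2, and all cells were sorted as viable CD4+ singlets. No 48 h group without OVA in full medium was analysed here, so the OVA comparisons at 48 h lay within the low media.

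No label ties a replicate to a culture or an animal of its own, and p-values here therefore cover variation among arrays that may be technical. Mean log2 levels of the T cell markers measured were 9.68 to 10.39 on the 48 h arrays. At 72 h these means were 8.93 to 9.28 without OVA and 9.76 to 10.51 with OVA, without overlap. Macrophage markers averaged 5.62 to 6.80 at 48 h, where array medians were 5.44 to 5.75. At 72 h the 3 arrays without OVA stood apart, with 12 mesothelial and stromal markers averaging 9.62 to 10.10, against 3.98 to 6.32 on the 6 arrays with OVA. The submitters' sample numbers of the full-medium and pretreated 48 h arrays lay apart from those of the low-media arrays; if such blocks of numbers mark runs, which the labels do not say, medium and run cannot be told apart where these arrays are compared. In bulk cells, fewer cells of a type and less RNA per cell cannot be told apart.

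The promoters of 4 genes with large fold changes in the results below are shown: H1f5 and H1f1 are linker histone genes, H2bc12 is an H2B gene and H2ac21 an H2A gene. The part of promoter sequence in those changes was not tested. Each sequence is from RefSeq on GRCm38.p6, 250 bases before to 50 after the gene's start, written 5′ to 3′ on the gene's strand. Capitals mark every match on either strand to 4 motifs. TATAAA is the core promoter box named after its letters. CCAAT is a box found upstream of many promoters. ATTTGCAT is the octamer known from H2B promoters, and AAACACA is the H1 box known from linker histone promoters. None of the 4 contains another.
H1f5, chr13:21780576-21780875, minus strand: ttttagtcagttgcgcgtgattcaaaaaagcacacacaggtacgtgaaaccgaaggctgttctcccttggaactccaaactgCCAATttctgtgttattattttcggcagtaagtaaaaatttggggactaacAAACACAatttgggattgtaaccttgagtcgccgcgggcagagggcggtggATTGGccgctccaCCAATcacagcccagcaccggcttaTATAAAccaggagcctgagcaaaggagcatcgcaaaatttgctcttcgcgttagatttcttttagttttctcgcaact
H1f1, chr13:23763418-23763717, plus strand: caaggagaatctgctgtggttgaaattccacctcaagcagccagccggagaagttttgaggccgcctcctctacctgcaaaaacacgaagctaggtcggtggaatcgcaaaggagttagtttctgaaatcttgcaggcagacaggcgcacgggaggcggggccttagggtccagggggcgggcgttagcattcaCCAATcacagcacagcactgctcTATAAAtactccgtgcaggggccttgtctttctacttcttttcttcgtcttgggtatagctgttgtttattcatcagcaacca
H2bc12, chr13:22035571-22035870, plus strand: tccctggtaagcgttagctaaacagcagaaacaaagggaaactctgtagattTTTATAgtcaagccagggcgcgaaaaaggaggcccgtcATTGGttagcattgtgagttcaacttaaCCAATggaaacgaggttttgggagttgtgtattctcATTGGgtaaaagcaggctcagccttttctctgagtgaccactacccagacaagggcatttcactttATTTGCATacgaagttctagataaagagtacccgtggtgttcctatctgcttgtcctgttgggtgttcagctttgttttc
H2ac21, chr3:96219635-96219934, plus strand: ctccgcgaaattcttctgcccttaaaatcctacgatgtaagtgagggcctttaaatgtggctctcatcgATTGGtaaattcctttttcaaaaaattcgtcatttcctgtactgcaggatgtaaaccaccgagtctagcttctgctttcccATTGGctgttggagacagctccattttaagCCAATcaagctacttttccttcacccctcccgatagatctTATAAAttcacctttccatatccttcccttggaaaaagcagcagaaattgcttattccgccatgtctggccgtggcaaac

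Promoters were found for 33 of the 38 members; H2bc4, H2bc21, H3c1, H3c7 and H4c14 were not matched. TATAAA occurred in 20 of the 33 windows (60.6%), against 13.6% of 32851 windows of all genes, and CCAAT in 25 (75.8%), against 37.4%. The octamer occurred in 5 of 7 H2B windows, 3 of 6 H2A windows and none of the H1, H3 or H4 windows, for 24.2% of members against 1.74% of all windows. AAACACA occurred in 5 of 9 H1 windows, and in 24.2% of members against 7.18% of all windows. CCAAT occurred in 1 of 7 H4 windows and in all 6 H2A and all 7 H2B windows. The windows of H2bc12 and of H2ac12, on the opposite strand at chr13:22035594-22035893, overlapped over 277 bases. The octamer printed for H2bc12 is thus in both, as are 1 TATAAA and 3 CCAAT matches. The windows of H2ac1 and H2bc1 also overlapped on opposite strands, over 220 bases that hold their octamer and their AAACACA match. That stretch also holds 1 TATAAA and 4 CCAAT matches, so not all windows counted above are separate sequence. These matches are descriptions of letters, not of sites in use.

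Levels are the deposited RMA values on the log2 scale, and a gene was called where limma's adjusted p, by Benjamini-Hochberg over all genes of its platform, was under 0.05. An adjusted p given after a left-out array or another setting is that of the refit. "Rose" and "fell" are used of called genes, and differences are log2 fold changes with their SE. A level of one gene is not set against that of another, since probes differ.

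With OVA, 7 members rose in all 3 low media: the linker genes H1f1 and H1f5, the H2A genes H2ac10, H2ac15, H2ac20 and H2ac21, and the H2B gene H2bc12. The share of all genes that rose in all 3 media was not counted, so whether 7 is many is not known. Of 29 members, 10 rose and 1 fell in low arginine, where 29.4% of all genes were called, 17.2% upward and 12.2% downward. In low leucine 8 rose and 3 fell, where 41.3% of all genes were called (21.8% and 19.5%), and in low lysine 7 rose and 2 fell, where 31.0% were (18.4% and 12.6%). The share of members called was near that of all genes. The member median was 0.31, 0.16 and 0.15 in low arginine, leucine and lysine, against -0.12, -0.13 and -0.09 over all genes. By family, 3 of 8 H1, 4 of 6 H2A, 2 of 8 H2B and 1 of 7 H4 genes rose in low arginine. Without low lysine OVA replicate 3, 3 of the 7 members (H1f5, H2ac10 and H2ac21) still rose in low lysine. Among the fits that left out 1 array, that was the one in which the low lysine call of H1f1 was lost. With every array centred on its median, the splits were 13 rose and 0 fell, 13 and 2, and 8 and 1. Centring also raised the median over all genes, to 0.07, 0.05 and 0.05 in low arginine, leucine and lysine. The added rises and fewer falls therefore do not set members apart from other genes.

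**Figure D1:**
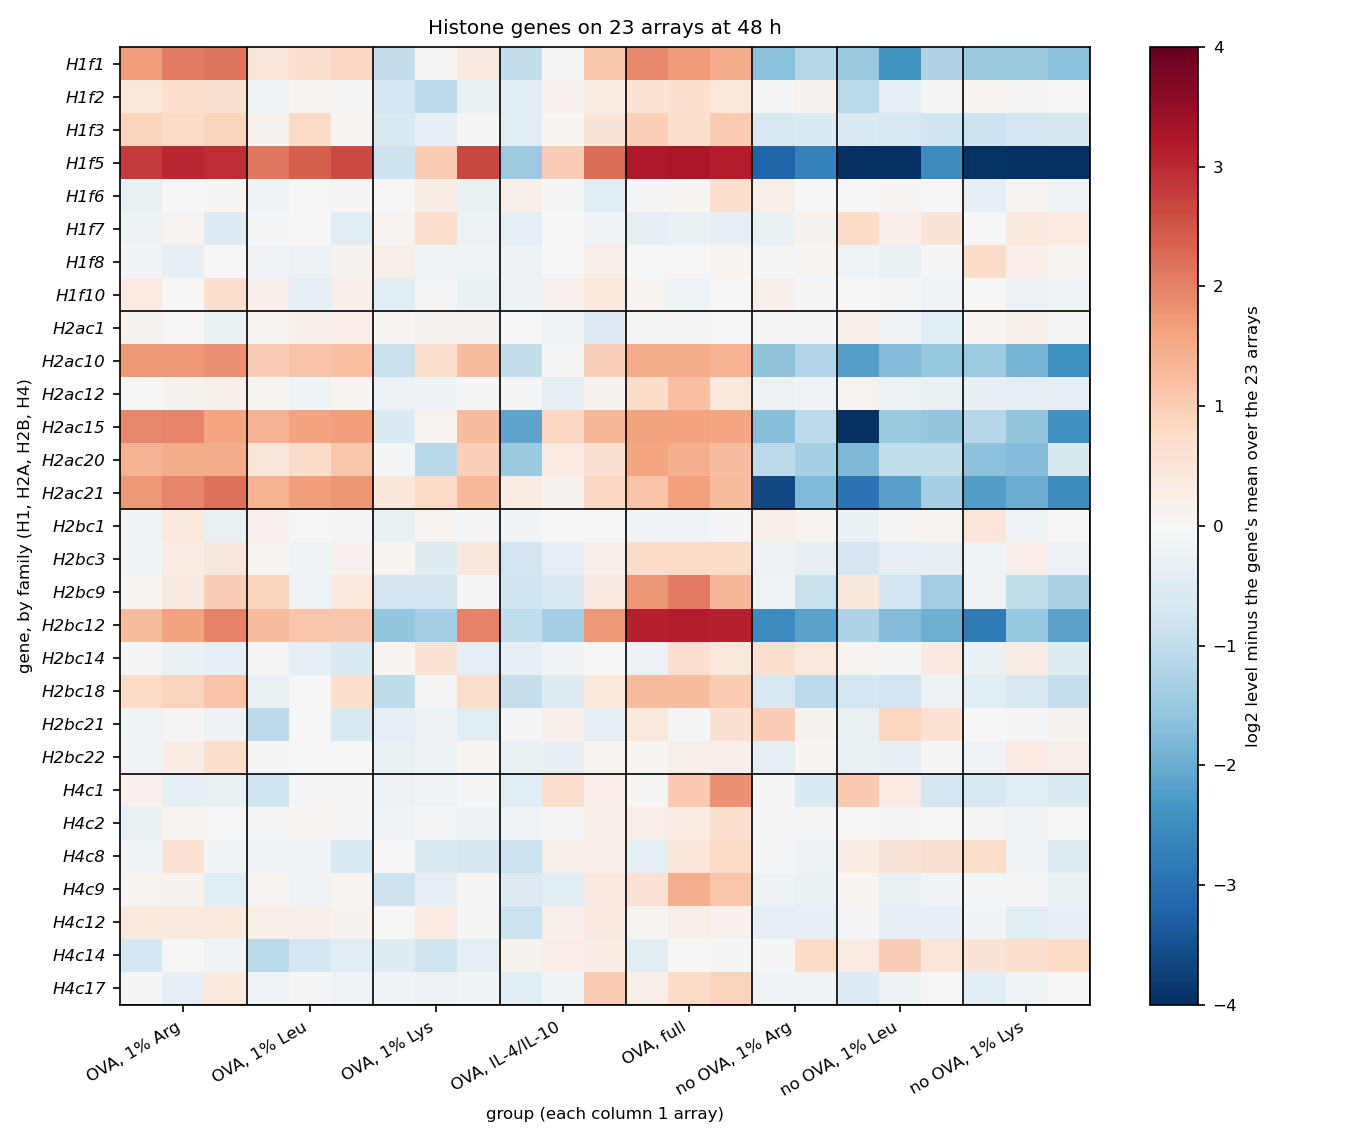
Log2 level of each of 29 histone genes (rows, by family) on each of 23 arrays at 48 h (columns, by group), minus that gene's mean over the arrays. H1f5 and H2ac15 have the widest range, and the 8 arrays without OVA are low for H1f5 and for 4 of the 6 H2A genes.

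H1f5, a linker histone subtype made in dividing cells, had levels of 12.00, 12.23 and 12.14 with OVA in low arginine, against 6.0 and 6.50 without OVA. In low leucine it had 11.32, 11.59 and 11.84 with OVA, against 4.73, 4.91 and 6.66 without. In low lysine it had 8.38, 10.23 and 11.88 with OVA, against 5.24, 4.79 and 4.63 without. The groups did not overlap in any medium, and the low lysine arrays with OVA were the most spread. The differences were 5.88 ± 0.78 (adjusted p = 3.51e-06), 6.15 ± 0.69 (adjusted p = 2.37e-07) and 5.28 ± 0.69 (adjusted p = 2.64e-06). Ordered by fold change, H1f5 stood at place 1 of 22180 genes in low arginine, place 1 in low leucine and place 4 in low lysine.

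The other somatic linker histone genes moved less. H1f1 had 6.76, 7.16 and 7.21 with OVA in low arginine, against 3.43 and 3.93 without, and rose by 3.36 ± 0.42. It rose by 2.33 ± 0.37 in low leucine and by 1.35 ± 0.37 in low lysine, where its levels were 4.12, 5.13 and 5.45 with OVA against 3.60, 3.60 and 3.43 without. The H1f1 groups did not overlap in any of the 3 media. H1f3 rose in low arginine (1.42 ± 0.22) and low leucine (0.98 ± 0.20) and was not called in low lysine (0.40 ± 0.20, adjusted p = 0.128). H1f2 differed by 0.54 ± 0.24 in low arginine and 0.48 ± 0.21 in low leucine, neither called, and fell by 0.69 in low lysine (adjusted p = 0.0166). Its low lysine levels were 8.98, 8.59 and 9.35 with OVA, against 9.73, 9.61 and 9.64 without. That call was lost without low lysine OVA replicate 2 (adjusted p = 0.0991), without low lysine no-OVA replicate 1 (0.0515) and with centred arrays (0.0839).

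**Figure D2:**
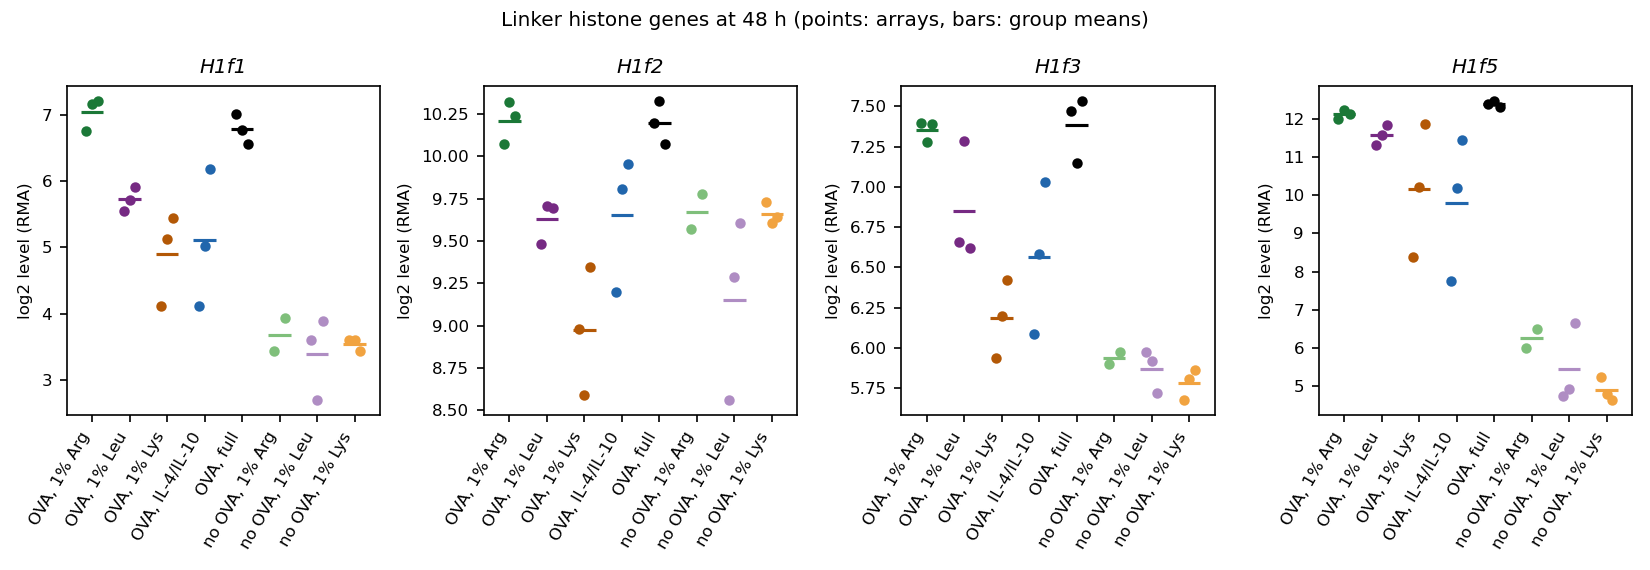
Log2 levels of 4 linker histone genes on each 48 h array (points) with group means (bars), by group; the vertical axes differ. H1f5 with OVA ranges from 7.75 to 12.48, and without OVA from 4.63 to 6.66.

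The linker genes of germ cells and the replication-independent H1f10 gave no rise. H1f6 and H1f7 are testis subtypes and H1f8 is an oocyte subtype, and their levels lay between 3.70 and 5.92 on all 48 h arrays. H1f7 fell by 0.65 in low leucine (adjusted p = 0.0173). The H1f7 call was lost without low leucine OVA replicate 3 (0.0981), without low leucine no-OVA replicate 1 (0.0931), with centred arrays (0.0764) and with quantile normalization (0.144). H1f6, H1f8 and H1f10 were called in none of the 48 h comparisons.

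Among H2A genes, H2ac21 had 10.11, 10.34 and 10.56 with OVA in low arginine, against 4.77 and 6.61 without. In low leucine it had 9.77, 10.05 and 10.12 with OVA, against 5.42, 6.20 and 7.03 without. In low lysine it had 8.82, 9.13 and 9.68 with OVA, against 6.13, 6.38 and 5.85 without. Every OVA array lay above every array without OVA in its medium. The rises were 4.65 ± 0.40, 3.77 ± 0.36 and 3.09 ± 0.36, and both H2ac21 probe sets rose in all 3 media when probe sets were fitted singly. H2ac10 rose by 3.17, 2.93 and 2.24 and H2ac20 by 2.65, 2.04 and 1.27. In low lysine the H2ac20 groups overlapped, and its call was lost without OVA replicate 1 or 3, without no-OVA replicate 1 or 2, with the compared groups alone and with quantile normalization. H2ac15 rose by 3.18 ± 0.80, 4.16 ± 0.71 and 1.99 ± 0.71. Its low leucine arrays without OVA were 4.87, 8.13 and 8.07, with replicate 1 the lowest. In low lysine the H2ac15 call (adjusted p = 0.0363) was lost without OVA replicate 2 (0.057) or 3 (0.179), without no-OVA replicate 2 (0.0667) or 3 (0.136), and with quantile normalization (0.15). In low arginine it was lost without no-OVA replicate 1. H2ac1, a testis H2A gene, was not called in any 48 h comparison.

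Among H2B genes, H2bc12 had 7.37, 7.71 and 8.08 with OVA in low arginine, against 3.57 and 3.96 without, a rise of 3.95 ± 0.76. It rose by 2.79 ± 0.68 in low leucine and by 1.86 ± 0.68 in low lysine (adjusted p = 0.0403). In low lysine its OVA arrays were 4.55, 4.75 and 8.09, against 3.28, 4.58 and 3.96 without OVA. Those groups overlapped, and replicate 3 alone stood high. The low lysine call of H2bc12 was lost without OVA replicate 3, without no-OVA replicate 1 or 3 and with the compared groups alone. H2bc14 fell by 0.76 in low arginine (adjusted p = 0.0335) and H2bc21 by 0.94 in low leucine (adjusted p = 0.00762). The H2bc14 call was lost without OVA replicate 2 (0.0713) or 3 (0.0976), without no-OVA replicate 1 (0.213) or 2 (0.0685), and with centred arrays (0.112) or quantile normalization (0.173). The H2bc21 call was lost without low leucine OVA replicate 1 (0.0585) or no-OVA replicate 2 (0.0564).

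Of the 7 H4 genes, H4c14 and H4c12 were called with OVA. H4c14 fell by 1.33 ± 0.22 in low leucine and by 1.23 ± 0.22 in low lysine, and differed by -0.64 ± 0.25 in low arginine (adjusted p = 0.0559). In low leucine it had 4.83, 5.23 and 5.46 with OVA, against 6.24, 6.88 and 6.39 without, and in low lysine 5.42, 5.09 and 5.51, against 6.42, 6.59 and 6.70. Neither pair of groups overlapped. H4c12, named after its values were seen, rose by 0.74 in low arginine and was not called in low leucine or low lysine. The H4c12 call was lost without no-OVA replicate 1 or 2 and with quantile normalization.

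The antigen effect was not found to differ between the low media for any member. The moderated F test of the medium-by-antigen interaction called 0 of 29 members with limma, where 0.149% of 22180 genes were called, and 6 members had an unadjusted p under 0.05. H1f2 had the lowest adjusted p (0.127), with an antigen effect 1.22 lower on the log2 scale in low lysine than in low arginine, written -1.22. H1f2 was called without low lysine OVA replicate 3, with quantile normalization and with blocks of the submitters' sample numbers as a term. Without that same replicate, the number of members called with OVA in low lysine was 5 in place of 9.

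The genes that supply and process histone mRNA rose beside them. Slbp, which binds the stem-loop, rose by 2.45 in low arginine, 1.99 in low leucine and 1.43 in low lysine. Npat, which activates histone transcription at S phase, rose by 1.24, 1.16 and 0.88, and Casp8ap2, which recruits the processing machinery, by 1.59, 1.56 and 0.90. Lsm10, of the U7 particle that guides cleavage, rose by 0.98, 1.20 and 0.85. Of 11 listed processing genes, 7, 9 and 9 rose and none fell, where 17.2%, 21.8% and 18.4% of all genes rose. The supply genes given with values here all rose, and Lsm11, Zfp473 and Chaf1b are not given. Of 15 measured histone chaperones, 10, 12 and 10 rose and none fell, among them Chaf1a (3.08, 2.41 and 1.91) of the assembly factor CAF-1, Nasp (1.92, 1.61 and 1.62), Asf1b (2.31, 1.67 and 1.14) and the acetyltransferase Hat1 (2.18, 2.32 and 2.62). Of the 27 measured genes of a list for S phase, 26, 27 and 25 rose, with medians of 2.68, 2.18 and 1.98. Of 10 T cell markers measured, 6, 4 and 4 rose and 1 fell in each medium. Macrophage markers averaged 5.62 to 6.23 on the low-media arrays with OVA, against 6.44 to 6.80 without, and 7, 10 and 6 of 15 fell. Mesothelial and stromal markers averaged 5.13 to 5.5 with OVA, against 5.55 to 6.41 without, and 3, 7 and 2 of 12 fell. CD8 and NK cell markers averaged 5.57 to 6.25 with OVA, against 6.29 to 6.61 without, and 1, 3 and 1 of 5 fell, with 1 rising in low lysine. The part of cell content in the histone differences was not tested.

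Among the replication-independent variants, H2ax, whose mRNA can also end in a stem-loop, rose by 3.16, 3.12 and 1.53 in low arginine, leucine and lysine. H2az1 rose by 1.87, 1.47 and 1.27. H2az2 rose by 1.42 in low arginine and 0.80 in low leucine, and Cenpa, the centromeric H3, by 0.60 and 0.64; neither was called in low lysine. Macroh2a1 rose by 0.53 and 0.51 in low arginine and low leucine. H2aj and Macroh2a2 were not called in any medium.

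Amino acid supply was compared among OVA cultures, and the 4 comparisons with full medium share the same 3 full-medium arrays. In low lysine 12 of 29 members fell and none rose, where 8.73% of all genes were called and 6.24% fell. In low arginine 3 fell, where 4.67% of all genes were called and 3.17% fell, and in low leucine 2 fell, where 2.72% were called and 1.56% fell. The member medians were -0.73 in low lysine, -0.17 in low arginine and -0.57 in low leucine, against 0.02, 0.01 and 0.00 over all genes. On pretreated macrophages 11 fell and none rose, where 8.64% of all genes were called and 5.93% fell, with a median of -0.55 against 0.01 over all genes.

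**Figure D3:**
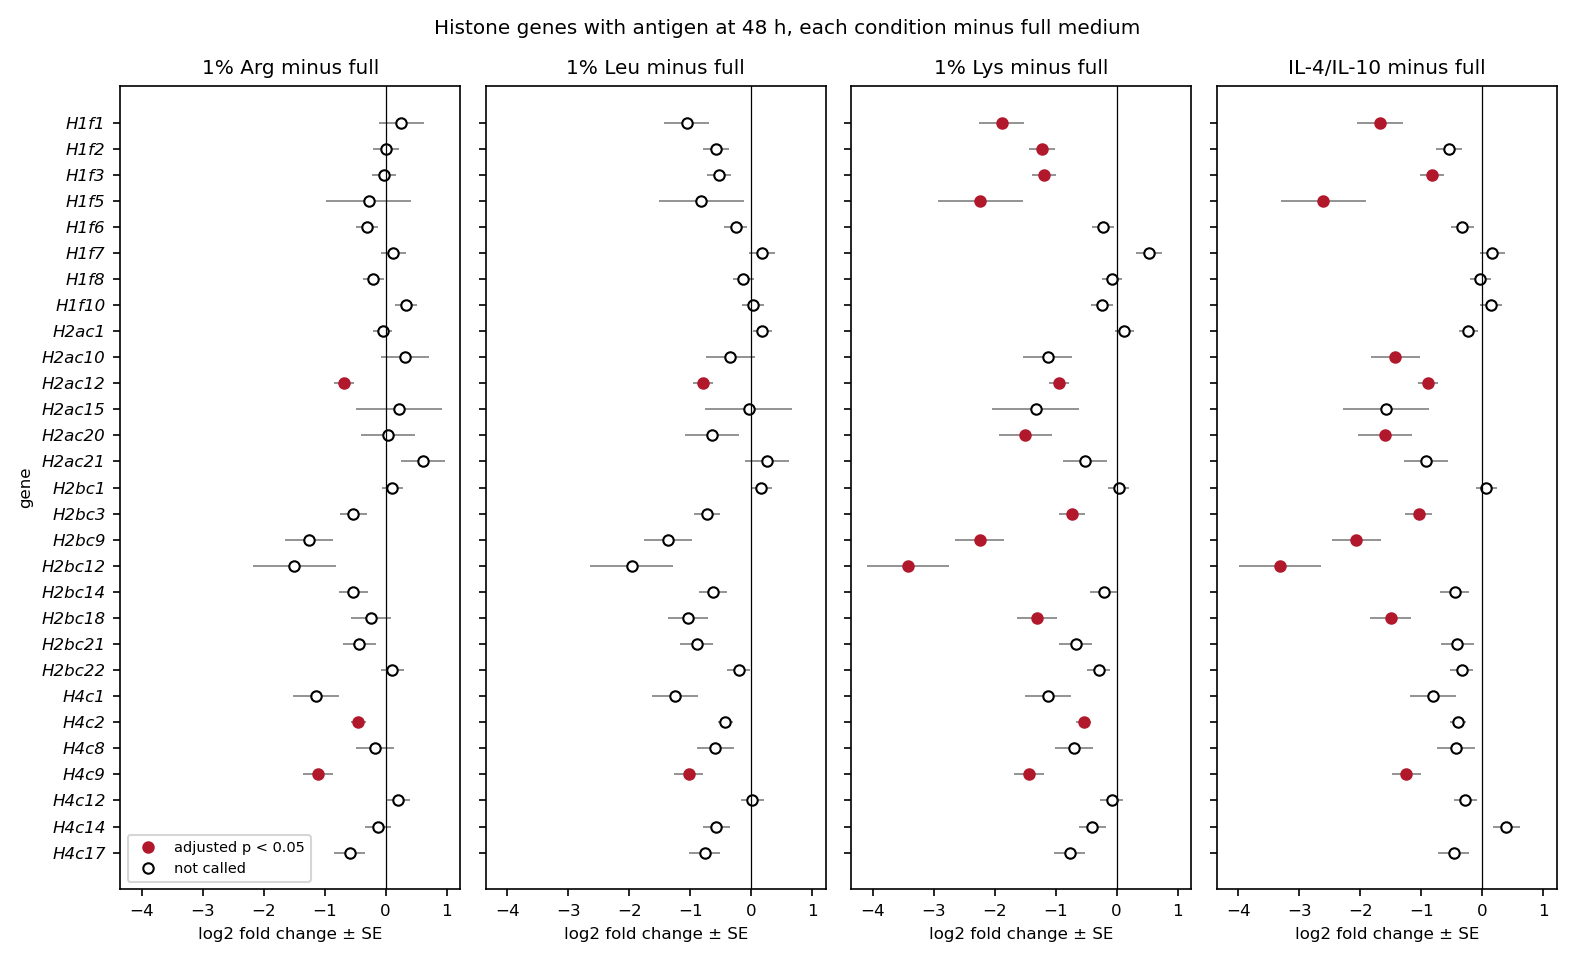
Log2 fold change with its SE for each of 29 histone genes with OVA at 48 h, for low arginine, low leucine, low lysine and IL-4/IL-10 pretreated macrophages, each minus full medium; filled points passed adjusted p under 0.05. In low lysine 12 genes are filled, on pretreated macrophages 11, in low arginine 3 and in low leucine 2, all below 0.

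H2bc12 changed most in low lysine. It had 4.55, 4.75 and 8.09 in low lysine, against 9.20, 9.24 and 9.21 in full medium, and fell by 3.42 (SE 0.68, adjusted p = 0.00307), at place 4 of 22180 genes among falls. On pretreated macrophages it had 5.12, 4.73 and 7.85, against the same full-medium arrays, and fell by 3.31 (adjusted p = 0.00279), at place 3. All 6 arrays lay below full medium, with replicate 3 of each group the highest. In low arginine it had 7.37, 7.71 and 8.08 (-1.50 ± 0.68, adjusted p = 0.268) and in low leucine 7.37, 7.21 and 7.19 (-1.96 ± 0.68, adjusted p = 0.161). These too lay below every full-medium array but were not called. The H2bc12 calls in low lysine and on pretreated macrophages held in every fit that left out 1 array.

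H2bc9, another H2B gene, had 4.37, 4.38 and 5.01 in low lysine and 4.32, 4.54 and 5.45 on pretreated macrophages, against 6.87, 7.19 and 6.44 in full medium. It fell by 2.25 in low lysine (adjusted p = 0.00123) and by 2.06 on pretreated macrophages (adjusted p = 0.00173), and both calls held whichever array was left out. Neither group overlapped full medium. In low arginine and low leucine it differed by -1.26 ± 0.40 (adjusted p = 0.0777) and -1.36 ± 0.40 (adjusted p = 0.0745).

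H1f5 had 8.38, 10.23 and 11.88 in low lysine and 7.75, 10.20 and 11.44 on pretreated macrophages, against 12.39, 12.48 and 12.33 in full medium. All 6 arrays lay below full medium, over a range of several log2 units, while the full-medium arrays were nearly equal. H1f5 fell by 2.24 in low lysine (SE 0.69, adjusted p = 0.0465) and by 2.60 on pretreated macrophages (adjusted p = 0.0192). The low lysine call was lost without full-medium replicate 1 (0.0946), 2 (0.124) or 3 (0.114) and without low lysine replicate 1 (0.272) or 2 (0.119), and with 3 other settings (0.0501 to 0.088). The pretreated call was lost without full-medium replicate 1 (0.0544), 2 (0.0659) or 3 (0.0554), without pretreated replicate 1 (0.168), and when the compared groups alone were fitted (0.053). In low arginine H1f5 differed by -0.27 ± 0.69 and in low leucine by -0.82 ± 0.69, neither called.

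H1f1 had 4.12, 5.13 and 5.45 in low lysine and 4.12, 5.02 and 6.19 on pretreated macrophages, against 7.01, 6.78 and 6.57 in full medium. It fell by 1.89 in low lysine (adjusted p = 0.00288) and by 1.67 on pretreated macrophages (adjusted p = 0.00541), with no overlap; the second call was lost without pretreated replicate 1 (0.0528). H1f3 fell by 1.20 in low lysine and by 0.82 on pretreated macrophages. H1f2 fell by 1.22 in low lysine, with 8.98, 8.59 and 9.35 against 10.20, 10.33 and 10.07 in full medium, and differed by -0.55 ± 0.21 on pretreated macrophages (adjusted p = 0.124). None of the 8 linker genes was called in low arginine or low leucine. In low leucine 6 of the 8 differences lay below 0 and 2 above. The largest was that of H1f1 (-1.06), with levels of 5.56, 5.71 and 5.91 that did not overlap full medium.

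H4c9, H2ac12 and H4c2 made up the calls in low arginine and low leucine. The H4 gene H4c9 had 5.76, 5.77 and 5.18 in low arginine and 5.76, 5.49 and 5.71 in low leucine, against 6.20, 7.08 and 6.76 in full medium. It fell by 1.11 (adjusted p = 0.00686) and by 1.03 (adjusted p = 0.0172), and every low arginine and low leucine array lay below full medium. H2ac12 had 2.92, 3.08 and 3.14 in low arginine and 3.04, 2.76 and 3.00 in low leucine, against 3.68, 4.13 and 3.36 in full medium, without overlap. H2ac12 fell by 0.68 (adjusted p = 0.0152) and by 0.79 (adjusted p = 0.00627), and H4c2 fell by 0.44 in low arginine (adjusted p = 0.0478). H2ac12 and H4c2 lay below the median of every array.

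These calls rested on few arrays. Without full-medium replicate 2, 0 members were called in low arginine and 0 in low leucine. Without low arginine replicate 1 or 3 the low arginine count was 1, and without full-medium replicate 3 or low leucine replicate 2 or 3 the low leucine count was 1. With the compared groups alone 9 were called in low arginine and 13 in low leucine. The share of all genes called in these refits is not given, so whether members moved more than other genes is not known. Singly, H4c9 in low arginine was lost without full-medium replicate 2 (0.0643) or low arginine replicate 3 (0.0559). In low leucine it was lost without full-medium replicate 2 (0.139) or 3 (0.0797), without low leucine replicate 2 (0.0966) or 3 (0.0506), and with quantile normalization (0.0641). H2ac12 was lost in low arginine without full-medium replicate 2 (0.129) or low arginine replicate 1 (0.0832), and in low leucine without full-medium replicate 2 (0.0684) or low leucine replicate 2 (0.053). H4c2 was lost without any 1 of 5 arrays, full-medium replicates 2 (0.0879) and 3 (0.28) and low arginine replicates 1 (0.256), 2 (0.0546) and 3 (0.0889), and in 3 other settings (0.0526 to 0.0825).

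In low lysine the other called genes, chosen after their values were seen, were H2ac20 (-1.50), H4c9 (-1.44), H2bc18 (-1.30), H2ac12 (-0.94), H2bc3 (-0.73) and H4c2 (-0.54). On pretreated macrophages they were H2ac20 (-1.59), H2bc18 (-1.50), H2ac10 (-1.42), H4c9 (-1.24), H2bc3 (-1.04) and H2ac12 (-0.89). The count on pretreated macrophages was 7 without full-medium replicate 3 and 6 without pretreated replicate 1.

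In the same 2 comparisons, 4 of 11 processing genes fell in each, 7 of 15 chaperones fell in low lysine and 6 on pretreated macrophages, and none of either list rose. The log2 fold changes in low lysine and on pretreated macrophages were -0.67 and -0.70 for Slbp, -1.34 and -1.48 for Chaf1a, -0.93 and -1.38 for Chaf1b, and -0.97 and -1.25 for Asf1b, all called. Nasp fell in low lysine (-0.64), and Hat1 (-1.12) and Lsm11 (-0.53) fell on pretreated macrophages. Of the variants, H2ax (-1.92 and -2.04), H2az1 (-0.91 and -1.12) and Cenpa (-1.90 and -1.66) fell in both comparisons. Of 27 S phase genes, 20 fell in low lysine and 21 on pretreated macrophages, against 1 in low arginine and 2 in low leucine. In those last 2 media Cenpa fell (-0.99 and -1.03), and in low arginine Chaf1b fell (-0.81) and H2az2 rose (0.91).

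The S phase list averaged 7.80, 8.32 and 8.67 on the low lysine arrays and 7.76, 7.99 and 8.60 on the pretreated arrays, against 9.06, 9.10 and 9.15 in full medium. The mean over 29 members was 5.75, 5.98 and 6.35 in low lysine and 5.57, 6.10 and 6.54 on pretreated macrophages, against 6.80, 6.98 and 6.97 in full medium. Within low lysine and within pretreated, both means put the 3 arrays in the same order. B cell markers averaged 6.92, 6.13 and 5.64 on the low lysine arrays, against 5.43 to 5.56 in full medium, and 3 of 5 rose. Macrophage markers averaged 6.60, 6.80 and 6.43 on the pretreated arrays, against 6.14, 6.15 and 6.07 in full medium, and 5 of 15 rose. The part of these other cells, of S phase and of the sample-number block in the histone differences was not tested.

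**Figure D4:**
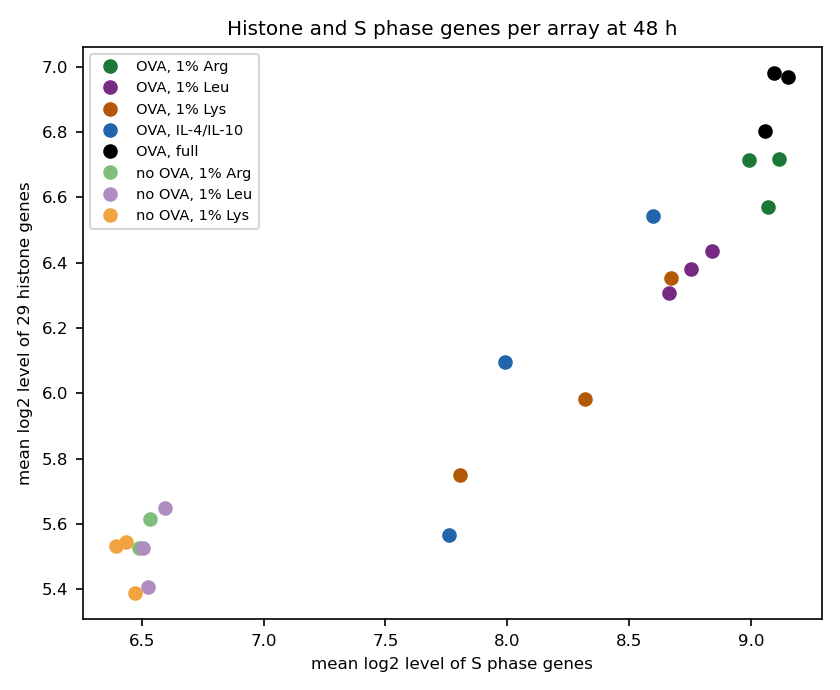
Mean log2 level of 29 histone genes (vertical) against that of 27 S phase genes (horizontal) on each of 23 arrays at 48 h, coloured by group. Arrays without OVA lie at S phase means of 6.39 to 6.60, full-medium arrays at 9.06 to 9.15, and the low lysine and pretreated arrays are spread between.

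The low media were also set against each other with OVA. Low arginine against low leucine called 0 of 29 members with limma, where 0.712% of all genes were called; 4 members had an unadjusted p under 0.05, and with the compared groups alone 6 were called. Low leucine against low lysine called 0, where 1.88% of all genes were called; 6 members had an unadjusted p under 0.05, and 4 were called without low lysine replicate 3. In low arginine against low lysine 4 members rose, where 3.22% of all genes were called and 2.65% rose, and 9 were called without low lysine replicate 3.

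Those 4 were H1f1, H1f2, H1f3 and H2ac10. H1f1 had 6.76, 7.16 and 7.21 in low arginine, against 4.12, 5.13 and 5.45 in low lysine, a difference of 2.15 ± 0.37 (adjusted p = 0.002) and place 11 of 22180 genes. H1f2 had 10.07, 10.32 and 10.24, against 8.98, 8.59 and 9.35 (1.24 ± 0.21), and H1f3 had 7.40, 7.28 and 7.39, against 5.94, 6.20 and 6.42 (1.17 ± 0.20). None of these groups overlapped, and the 3 linker calls held in every fit that left out 1 array. H2ac10 had 10.82, 10.83 and 10.92, against 8.19, 9.72 and 10.31 (1.45 ± 0.40, adjusted p = 0.0452). The H2ac10 call was lost without low arginine replicate 1 (0.118), 2 (0.117) or 3 (0.149), without low lysine replicate 1 (0.288) or 2 (0.0652), and in 3 other settings (0.0516 to 0.165). H1f5 differed by 1.96 ± 0.69 (adjusted p = 0.154). Slbp was 0.91 higher in low arginine and 15 of 27 S phase genes rose.

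Pretreated macrophages, which the labels say were to express arginase-1, were set against low arginine on untreated macrophages. In all, 6 members fell and none rose, where 3.37% of all genes were called and 1.85% fell. H1f1 had 4.12, 5.02 and 6.19 on pretreated macrophages, against 6.76, 7.16 and 7.21 in low arginine, and fell by 1.93 (adjusted p = 0.00407) with no overlap. H2ac10 fell by 1.74 (adjusted p = 0.0131), H2ac20 by 1.63 (0.0387) and H2ac21 by 1.54 (0.0154); H2bc18 (-1.27) and H1f3 (-0.79), the second a linker gene, made up the count. H1f5 differed by -2.33 ± 0.69 (adjusted p = 0.0719). Of 27 S phase genes 19 fell, and 4 of 15 macrophage markers rose.

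That count moved with single arrays. It was 3, 2 and 1 without low arginine replicate 1, 2 and 3, and 1 and 3 without pretreated replicate 1 and 2, and 3 with the compared groups alone. H1f1 was kept in every fit that left out 1 array. H2ac10 was lost without low arginine replicate 3 (0.0582) or pretreated replicate 1 (0.116). H2ac20 was lost without low arginine replicate 1 (0.105), 2 (0.117) or 3 (0.121), without pretreated replicate 1 (0.307), with centred arrays (0.0515) and with the compared groups alone (0.108). H2ac21 was lost without low arginine replicate 2 (0.0542) or 3 (0.0824) or pretreated replicate 1 (0.0694) or 2 (0.0824).

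The H3 genes were read at 48 h by probe sets that name several genes. There were 38 such sets, each naming 2 to 13 genes, and 3 pairs of sets (2 H2A pairs and 1 H2B pair) held identical values on all 23 arrays; each pair is counted once in the family counts. They were described by family in a fit over 41345 probe sets that was added after seeing the data. Of 12 H3 sets, 6 rose with OVA in low arginine, 2 in low leucine and 0 in low lysine, where 11.6%, 15.5% and 12.6% of all probe sets rose; in low lysine 0 had an unadjusted p under 0.05 with limma. Of 9 distinct H2A sets, 6, 6 and 4 rose, and of 7 distinct H2B sets, 3, 3 and 2 rose. Against full medium, 9 of 12 H3 sets fell in low lysine and 7 on pretreated macrophages, where 3.46% and 2.98% of all probe sets fell. Of the H2A sets 1 and 3 fell, and of 5 H4 sets 2 fell in each. Of the 7 H2B sets limma called 0 in either comparison, with 5 at an unadjusted p under 0.05 in each. Against full medium, 2 H3 sets fell in low arginine and 3 in low leucine, where 1.66% and 0.752% of all probe sets fell. A further set, naming both H1 and H2B genes, fell against full medium in low arginine, low leucine, low lysine and on pretreated macrophages.

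The calls of these sets moved with single arrays. Over all 38 sets, with both of each pair counted, 13 fell in low lysine, but 5 without full-medium replicate 2 or 3, 3 and 6 without low lysine replicate 1 and 2, and 22 without replicate 3. On pretreated macrophages 14 fell, but 5 and 4 without full-medium replicate 2 and 3, 2 and 7 without pretreated replicate 1 and 2, and 24 without replicate 3. With OVA, 19 rose in low arginine, but 11 without either no-OVA array, and in low lysine 7 rose, but 3 without OVA replicate 3. With the replicate number as a block, 21 fell in low lysine.

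At 72 h RNA was labelled by a 3′ in vitro transcription kit, a kind that primes on poly(A) tails. Histone mRNAs that end in a stem-loop lack that tail, so these arrays may read them poorly, and how poorly was not tested. The members differed in direction. With OVA against no OVA, 5 of 19 members rose and 4 fell, where 38.2% of all genes were called, 20.7% upward and 17.4% downward. The median over members was 0.13, against 0.02 over all genes. With centred arrays the median of all genes moved to 0.53, and 12 members rose and 2 fell. On the same arrays all 29 measured S phase genes rose (median 2.61), all 12 mesothelial and stromal markers fell (median -6.21) and 10 of 15 macrophage markers fell. Of 9 T cell markers measured, 7 rose (median of the 9, 0.89) and none fell.

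The H3 genes gave the largest rises. H3c14 had 9.84, 9.57 and 9.17 with OVA, against 5.51, 5.71 and 5.92 without, and rose by 3.81 ± 0.30 (adjusted p = 2.7e-06). H3c1 had 9.59, 9.04 and 9.02, against 6.31, 6.70 and 7.13, and rose by 2.50 ± 0.28 (adjusted p = 3.18e-05). Neither gene's groups overlapped. Both values come from sets whose _s_at suffix marks probes shared by several transcripts, so which H3 gene they read is uncertain. The second H3c14 set fell by 0.42 (adjusted p = 0.0403), and the second H3c1 set was not called (group means of 2.84 with OVA and 2.81 without). H3c11 had 3.29, 3.11 and 3.07 with OVA, against 3.64, 3.24 and 3.61 without, groups that overlapped, and fell by 0.34 (adjusted p = 0.046). The H3c11 difference was 0.17 with centred arrays (0.389), and its call was lost without OVA replicate 2 (0.116) or 3 (0.145), without no-OVA replicate 1 (0.153) or 3 (0.139), and in 4 other settings (0.0583 to 0.0756).

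H1f2 and H2bc4 fell most. H1f2 had 4.81, 4.58 and 4.66 with OVA, against 8.62, 8.91 and 8.85 without, and fell by 4.11 (SE 0.39, adjusted p = 1.07e-05). H2bc4 had 5.35, 4.19 and 4.61, against 8.01, 8.54 and 8.38, and fell by 3.59 (adjusted p = 4.1e-06). Their OVA arrays all lay below those without OVA, and both H1f2 probe sets fell. The mesothelial and stromal markers were high on the same 3 arrays without OVA, and their part in these differences was not tested.

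H2bc22 had 9.98, 9.35 and 9.34 with OVA, against 7.76, 8.08 and 7.99 without, and rose by 1.61 ± 0.27 with no overlap. Its second probe set also rose, but that set's _x_at suffix marks probes that can also match other transcripts, so which H2B gene it reads is uncertain. On the 48 h arrays H2bc22 lay at 4.30 to 5.37, below the median of every array, and was called in no comparison. H1f4, a linker gene, had 5.19, 3.24 and 4.27 with OVA, against 2.63, 2.77 and 2.77 without, and rose by 1.51 ± 0.35, while its second probe set was not called (0.02, adjusted p = 0.898). H2bc18 had 4.05, 3.91 and 4.09, against 4.52, 5.32 and 5.01, and fell by 0.93 (adjusted p = 0.0079). The H2bc18 groups did not overlap, and its call was lost with centred arrays (0.0956) and quantile normalization (0.11). On the 48 h arrays H2bc18 rose with OVA in low arginine and was not called in low leucine or low lysine. H4c9, named after its values were seen, rose by 0.51 (adjusted p = 0.0168). H1f6, H1f7, H1f8 and H1f10 were not called.

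Of 10 processing genes, 9 rose at 72 h and none fell. Slbp rose by 1.81, Npat by 0.83, Casp8ap2 by 1.35, Lsm11 by 0.86 and Zfp473, a zinc finger protein of histone mRNA processing, by 2.23. Of 10 measured chaperones, 6 rose and 1 fell, and among the rises were Asf1b (3.31), Chaf1b (1.49) and Hat1 (1.87). Of 9 variants 5 rose: Cenpa by 2.54, H2ax by 1.52, H2az1 by 0.90, Macroh2a1 by 0.44 and H2aj by 0.41. H3f3a and H3f3b, the replication-independent H3 genes, fell by 0.33 and 0.34.

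**Figure D5:**
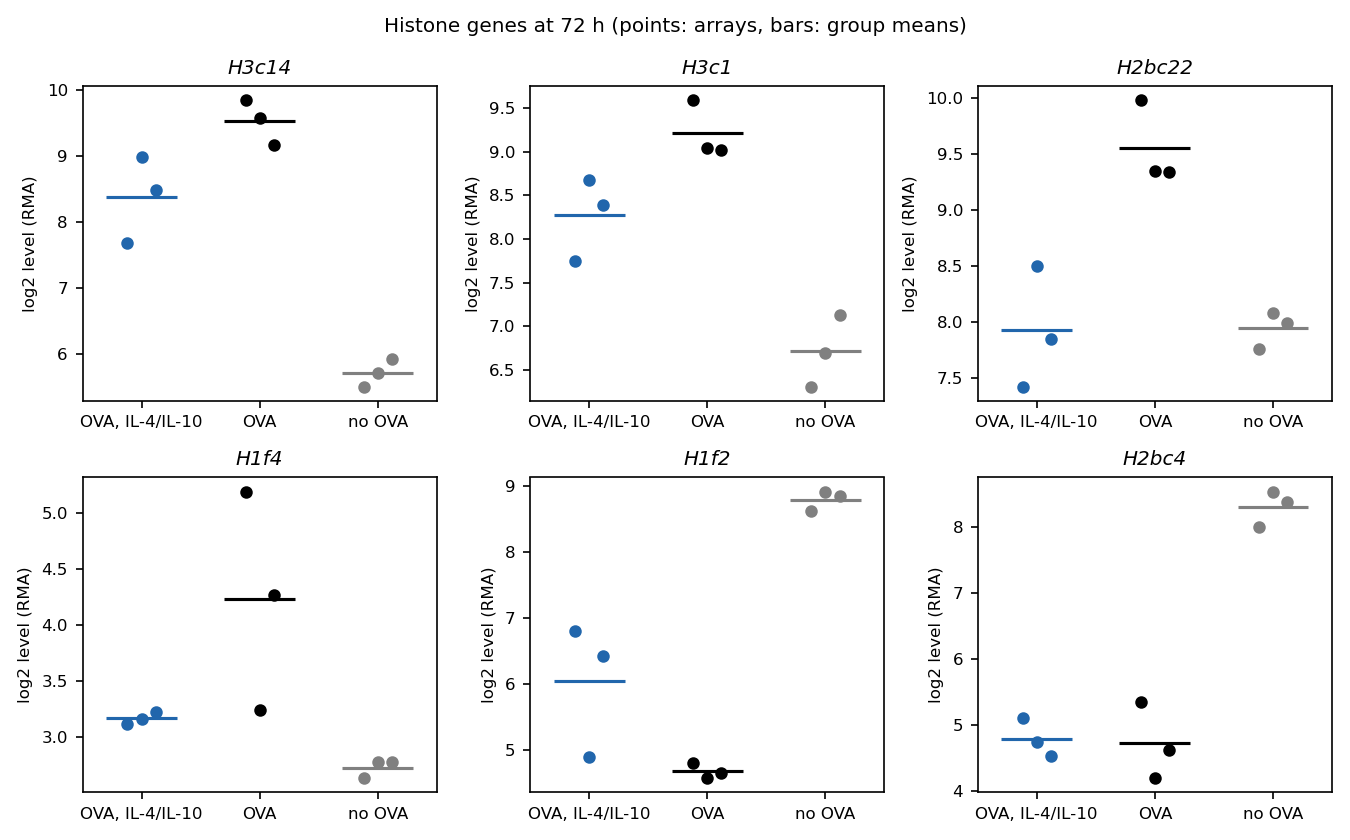
Log2 levels of 6 histone genes on each 72 h array (points) with group means (bars), for OVA on pretreated macrophages, OVA and no OVA; the vertical axes differ. H3c14, H3c1 and H2bc22 are highest with OVA on untreated macrophages, and H1f2 and H2bc4 are highest without OVA.

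On pretreated macrophages at 72 h, 2 of 19 members fell and none rose, where 9.69% of all genes were called and 5.91% fell. H2bc22 had 7.42, 8.50 and 7.85, against 9.98, 9.35 and 9.34 with OVA on untreated macrophages, and fell by 1.63 (adjusted p = 0.0051), a call kept in every fit that left out 1 array. Its second probe set, fitted singly, differed by -0.96 (adjusted p = 0.059). H3c14 had 7.68, 8.99 and 8.48, against 9.84, 9.57 and 9.17, and fell by 1.14 (adjusted p = 0.037). Neither gene's groups overlapped. The H3c14 call was lost without OVA replicate 1 (0.128), 2 (0.0829) or 3 (0.0667) and without pretreated replicate 1 (0.0943) or 3 (0.105), and in 3 other settings (0.0546 to 0.0801). The count was 1 without OVA replicate 1 or 3 or pretreated replicate 1 or 3, and 4 without pretreated replicate 2.

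H1f2 had 6.80, 4.90 and 6.43 on pretreated macrophages, against 4.81, 4.58 and 4.66 on untreated ones, a difference of 1.36 ± 0.39 that was not called (adjusted p = 0.0542). Replicate 2 was the lowest of the pretreated arrays. Mesothelial and stromal markers averaged 6.32, 4.54 and 4.74 on the pretreated arrays, against 3.98, 4.40 and 4.04. No label pairs these samples, but same-numbered ones were taken as paired because their deviations correlated (0.261, 0.234 and 0.16). That pairing was chosen from these same values. The submitters' sample numbers put replicates 1 and 2 of both groups in shared blocks, but not replicate 3. With the replicate numbers as a block 3 members were called, H1f2 upward with the same 2 downward. H3c1 differed by -0.94 ± 0.28 (adjusted p = 0.0581) and H1f4 by -1.07 ± 0.35 (adjusted p = 0.0842). Zfp473 (-1.76), Hat1 (-0.95) and Cenpa (-2.08) fell, H3f3b rose (0.71), and 3 of 29 S phase genes fell. Of 10 measured chaperones, 1 rose and 1 fell.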

How the data were processed

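RNA (100 ng) from sorted CD4+ T cells was hybridised to 23 MoGene-2_0-st arrays at 48 h and 9 HT_MG-430_PM arrays at 72 h. The deposited values are on the log2 scale; the submitters' processing notes name RMA and Affymetrix Expression Console 1.1; arrays have no read depth, and their number limits precision. No further normalization was applied, and all columns mapped to samples.

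Probe sets naming 1 gene were kept, the one with the highest mean for each gene. Each platform was fitted with all its groups in limma 3.58.1 (R 4.3.3; lmFit, eBayes with trend, two-sided), with Benjamini-Hochberg adjustment over all its genes and calls under 0.05. The platforms were not compared. Per the labels' protocols, targets were sense cDNA from a whole-transcript kit at 48 h and cRNA from a 3′ in vitro transcription kit at 72 h. The fit was tested on simulated data with independent noise around each gene's mean and 200 changed genes. Arrays that shift together were not simulated, so that test says nothing of calls where replicates are spread. Python 3.11.15, pandas 2.3.3 and matplotlib 3.10.9 were used for promoters and figures.

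The members and lists were chosen with earlier results of these data known. Named were, per comparison, up to 4 called members with the largest rise and 4 with the largest fall, all H1 genes, members whose probe sets disagreed with both called, and fixed supply and variant genes. Same-numbered samples were taken as paired where every correlation of their deviations was over 0.1. That choice came from the same values as the tests. It was met in pretreated against untreated at 72 h (0.261, 0.234 and 0.16) and low arginine against low leucine (0.351, 0.294 and 0.39). Alternatives changed scaling, filter, probe set choice, trend, groups fitted, blocks and single arrays.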

Additional observations from a re-analysis of the deposited data

How the results depend on the processing

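The 3 arrays a group, the spread of low lysine and pretreated arrays, poly(A)-primed labelling at 72 h, and probe sets shared by near-identical histone genes limit these results. Of 49 calls of named genes, 30 were kept in every fit that left out 1 array and 36 in every other setting; the causes were not tested. Within the tally 1 call reversed: H3c11 with OVA at 72 h, to 0.17 with centred arrays (adjusted p = 0.389).

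Member counts in refits stand mostly without the share of all genes called in that refit. They therefore do not set members apart from other genes. The calls over all genes moved too. For the interaction they were 33 in the main fit and 218 without low lysine OVA replicate 3. For OVA in low arginine they were 6517, and 7531 with the compared groups alone. Counts of members called moved by over 1.5 times as follows. With the compared groups alone they were 9 in low arginine and 13 in low leucine against full medium, 6 in low arginine against low leucine, 3 in pretreated against low arginine and 1 in pretreated against untreated at 72 h. With low genes removed, which leaves 12 of 29 members at 48 h and drops H2ac12, H4c2 and H4c9 (all the calls of low arginine and low leucine against full medium), they were 0, 0, 1 (low leucine against low lysine), 7 (pretreated at 48 h), 5 (OVA at 72 h) and 4 (pretreated at 72 h). Centred arrays gave 14 for OVA and 5 for pretreated at 72 h, and quantile normalization 1 for low leucine against full medium and 1 for the interaction. The mean of probe sets and the fit without trend each gave 1 for pretreated at 72 h. With sample-number runs as a block the counts were 1 (interaction), 7 (low arginine against low lysine) and 1 (low leucine against low lysine).

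With the replicate number as a block, low arginine against low lysine gave 7 in place of 4 (these samples share only a number). In the comparisons taken as paired it gave 3 in place of 2 for pretreated at 72 h and 0 for low arginine against low leucine. The block moved no other count of members called by over 1.5 times. Among the 49 tallied calls, H2bc14 with OVA in low arginine was the one it ended (adjusted p = 0.053).

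With each array left out in turn, the counts ranged from 0 to 1 for the interaction, 9 to 12, 10 to 13 and 5 to 10 for OVA in low arginine, leucine and lysine, 0 to 4, 0 to 3 and 8 to 14 for low arginine, leucine and lysine against full medium, 0 to 0, 3 to 9 and 0 to 4 for low arginine against leucine, arginine against lysine and leucine against lysine, 6 to 13 for pretreated at 48 h, 1 to 9 for pretreated against low arginine, 7 to 10 for OVA at 72 h and 1 to 4 for pretreated at 72 h.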
